A study of Mus musculus with 8 samples.

Results

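The oligodendrocyte lineage was followed from its precursors to myelin through 46 genes among the 38553 in the deposited table. The genes were picked by name for what they are known to mark or do, but with earlier results of these data known. Of the 46, 44 were among the 13674 genes abundant enough to be tested. The tissue was the medial entorhinal cortex (MEC) of 13 male C57BL/6JolaHsd mice aged 8 weeks, untreated and of no altered genotype named in the labels. From each mouse a sagittal slice through the right MEC was dissected into its dorsal and ventral ends, and the tissue of 3 or 4 mice was pooled, which gave 4 dorsal and 4 ventral libraries. Each library was thus a pool, and each group of mice gave tissue to both regions. Libraries are numbered here by column order within a region, so the same number in both regions does not mean the same mice. The comparison of the regions answers which transcripts vary along the dorsoventral axis of the MEC, the axis along which the firing fields of grid cells change in scale.

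Oligodendrocytes arise from precursors that carry the receptor for platelet-derived growth factor and keep dividing in the adult cortex. A precursor that commits to differentiate passes through a brief stage with its own surface proteins and enzymes, then switches on a large set of genes whose products build and hold together the myelin wrapped around axons. Transcription factors of the Olig and Sox families are present through much of this course and bind the regulatory DNA of myelin genes.

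Transcripts of myelin were higher dorsally, whereas neither precursor gene passed the test and both had a higher mean ventrally. Of the 44 genes tested, 26 were D>V (at least 20% more in dorsal than ventral MEC, with a Benjamini-Hochberg adjusted p from limma under 0.05), none was V>D and 18 did not pass. Over all genes tested, 2.15% were D>V and 1.45% were V>D by the same criteria, 3.6% in all. Since the lineage genes were chosen with earlier results known, these shares are set beside their counts as a description. At an unadjusted p under 0.05, 33 of the 44 were lower ventrally and 1, Pdgfra, was higher ventrally, against 8.71% and 7.31% of all genes tested. The median log2 of the ventral to dorsal ratio of mean FPKM, log2(V/D), was −0.64 over the 44 genes and −0.01 over all genes tested. FPKM is the number of fragments scaled to the exon length of the gene and to the fragments mapped in the library, so that levels can be set side by side between genes as well as libraries. In tissue of this kind fewer cells of a type and less RNA per cell cannot be told apart.

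The DNA upstream of the RefSeq start of 5 genes is shown to set myelin genes beside a precursor gene. Opalin, Tmem88b, Aspa and Mobp were among the D>V genes with the largest ratios, and Pdgfra is the more abundant of the precursor genes. The sequences are from RefSeq, build GRCm38.p6, and end at the base before the RefSeq start of the gene, or for Mobp before an exon of another annotation that reaches further upstream. The RefSeq start of Aspa lies inside the span that the other annotation, GENCODE, gives the gene, and its sequence overlaps no exon there. Those of Opalin (chr19:41077114-41077363), Tmem88b (chr4:155785875-155786124) and Aspa (chr11:73324638-73324887) are on the minus strand, and those of Mobp (chr9:120149492-120149706) and Pdgfra (chr5:75152001-75152250) on the plus strand. Capitals mark matches, on either strand, to AACAAT, a core bound by Sox proteins, to ACAAAG, a core shared by Sox and Tcf/Lef proteins, or to CAGCTG, an E-box of the kind bound by basic helix-loop-helix factors such as Olig1 and Olig2.
Opalin: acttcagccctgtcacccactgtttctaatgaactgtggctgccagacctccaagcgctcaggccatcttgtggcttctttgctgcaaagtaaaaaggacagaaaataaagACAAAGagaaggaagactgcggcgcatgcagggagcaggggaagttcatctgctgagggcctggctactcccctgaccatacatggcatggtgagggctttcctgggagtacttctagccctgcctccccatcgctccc
Tmem88b: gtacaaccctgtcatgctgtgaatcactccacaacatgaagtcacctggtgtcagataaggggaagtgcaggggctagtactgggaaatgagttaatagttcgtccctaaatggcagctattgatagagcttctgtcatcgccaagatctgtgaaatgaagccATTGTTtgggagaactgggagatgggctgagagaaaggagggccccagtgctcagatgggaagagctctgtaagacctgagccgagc
Aspa: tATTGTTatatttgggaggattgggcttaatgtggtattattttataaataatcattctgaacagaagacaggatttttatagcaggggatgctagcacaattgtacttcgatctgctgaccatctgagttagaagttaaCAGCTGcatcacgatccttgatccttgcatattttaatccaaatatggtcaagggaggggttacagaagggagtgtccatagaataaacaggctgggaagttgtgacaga
Mobp: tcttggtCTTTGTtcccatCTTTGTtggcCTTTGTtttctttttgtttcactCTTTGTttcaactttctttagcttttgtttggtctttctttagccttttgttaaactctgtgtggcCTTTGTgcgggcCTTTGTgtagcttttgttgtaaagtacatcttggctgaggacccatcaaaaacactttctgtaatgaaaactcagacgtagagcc
Pdgfra: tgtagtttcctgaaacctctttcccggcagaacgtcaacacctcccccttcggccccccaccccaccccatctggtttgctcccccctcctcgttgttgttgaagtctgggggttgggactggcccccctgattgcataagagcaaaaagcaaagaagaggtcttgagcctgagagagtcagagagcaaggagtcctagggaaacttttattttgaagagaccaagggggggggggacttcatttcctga
The capitals in the Opalin sequence are the only match there, an ACAAAG on the plus strand of the gene. Tmem88b held 1 AACAAT on the opposite strand, which the printed strand reads as ATTGTT. Aspa held 1 AACAAT on the opposite strand and 1 CAGCTG. Mobp held 6 copies of ACAAAG, all on the opposite strand, so that the printed strand reads CTTTGT. No match was in the Pdgfra sequence, and no matches overlapped each other in these 5 sequences.

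Across the lineage, 34 of the 46 genes were among the 27025 genes with a promoter entry. The 250 bases upstream of each start were searched, and a gene counted if any of its entries held a match. AACAAT was in 9 of the 34 (26.5%) and in 10.9% of all genes with an entry. ACAAAG was in 10 of the 34 (29.4%) and in 18.6% of all genes with an entry. CAGCTG was in 4 of the 34 (11.8%) and in 14.7% of all genes with an entry. Among the 18 D>V lineage genes with an entry, AACAAT was in 4, ACAAAG in 6 and CAGCTG in 1. These matches are of letters in a window and do not show binding.

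Transcripts of the precursor stage were the only group of the lineage in which every gene had a higher mean ventrally. Pdgfra (chr5:75152292-75198215, plus strand, GRCm38), the receptor through which platelet-derived growth factor drives precursor division, had FPKM of 8.41, 7.82, 8.47 and 8.58 in the dorsal libraries and 9.81, 10.1, 10.3 and 9.80 in the ventral ones. The lowest ventral value was thus above the highest dorsal value, a difference of 8.32 ± 0.340 against 9.99 ± 0.232 (mean ± SD, n = 4 libraries each). Its log2(V/D) was 0.26 and its adjusted p from limma 0.0643, so that it did not pass. Cspg4, the NG2 proteoglycan of precursors and of pericytes, had FPKM of 0.957, 1.14, 1.18 and 1.26 dorsally and 1.45, 1.30, 1.65 and 1.48 ventrally. These values did not overlap either, but the gene was near the lower limit of the levels tested and its adjusted p from limma was 0.340. Over all genes tested, 4.95% had every ventral library above every dorsal one and 6.17% the reverse. Of the 44 lineage genes tested these were 2 and 30, given as a description.

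Pdgfra is also expressed by fibroblasts of the leptomeninges, the thin membranes over the cortex, and their markers were higher ventrally. Of 9 such markers 8 were tested, 3 of them were V>D (Dcn, Igf2 and Aldh1a2) and none was D>V. Over all genes tested 1.45% were V>D and 2.15% D>V. The summed FPKM of the list was 81.1 to 87.7 in the dorsal libraries and 127 to 139 in the ventral libraries, and Dcn alone went from 24.3 ± 4.43 to 48.4 ± 6.49 (SD, n = 4). The part of these cells in the Pdgfra values was not tested. A longer list of precursor genes, 18 in all of which 13 were tested, held 1 V>D gene and no D>V gene in the limma fit, and at an unadjusted p under 0.05 the counts were 3 (23.1%, against 7.31% of all genes tested) and 0. Of the 13, 11 had a log2(V/D) above 0, with a median of 0.12. The V>D gene was Nxph1, which encodes the secreted neurexin ligand neurexophilin and is also made by inhibitory neurons, at 22.6 ± 1.33 FPKM dorsally and 30.7 ± 2.36 ventrally (SD, n = 4, log2(V/D) 0.44, limma adjusted p 0.0115).

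**Figure D1:**
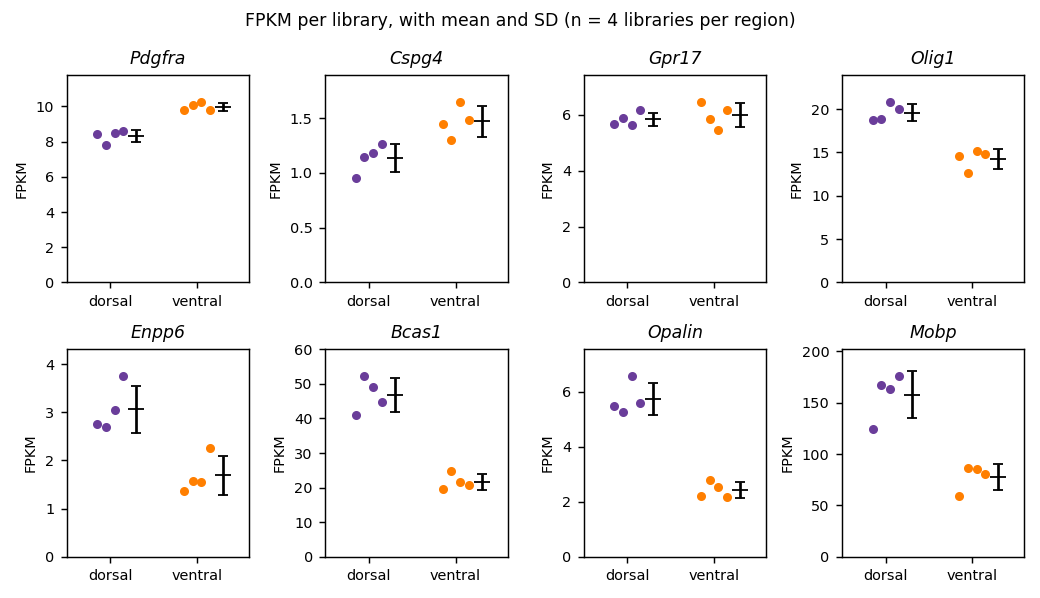
FPKM (y axes, from 0) of 8 genes in the 4 dorsal (purple) and 4 ventral (orange) libraries, with the mean and SD of each region in black. Pdgfra and Cspg4 lie higher in all ventral libraries, Gpr17 overlaps between the regions, and Olig1, Enpp6, Bcas1, Opalin and Mobp lie higher in all dorsal libraries.

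All 5 lineage transcription factors had a lower mean ventrally, and 1 of them passed. Olig1, a basic helix-loop-helix factor needed for the maturation of oligodendrocytes (chr16:91269772-91271933, plus strand), had FPKM of 18.7, 18.8, 20.9 and 20.02 dorsally and 14.6, 12.6, 15.1 and 14.8 ventrally. No ventral library reached the lowest dorsal one, and the mean was 1.37-fold higher dorsally (log2(V/D) −0.46, limma adjusted p 0.0102). Its relative Olig2, which specifies the lineage, lies on the same chromosome and overlapped between the regions, at 3.49, 4.84, 3.77 and 4.72 dorsally and 3.08, 3.87, 3.83 and 3.84 ventrally (log2(V/D) −0.20, limma adjusted p 0.558). Sox10, an HMG-box factor that activates myelin genes, had FPKM of 4.37, 5.29, 5.50 and 5.71 dorsally and 3.69, 3.75, 4.404 and 3.99 ventrally. Only dorsal library 1 and ventral library 3 of Sox10 overlapped, and its adjusted p from limma was 0.0931. Without dorsal library 1 Sox10 passed. Sox8, a close relative of Sox10, had means of 10.5 and 8.98 FPKM (adjusted p 0.207, limma), and the homeodomain factor Nkx2-2 had means of 1.38 and 0.987 FPKM with wide spread in both regions (adjusted p 0.557, limma).

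Markers of the committed and newly formed stages differed among themselves. Gpr17, an orphan receptor that precursors carry briefly on the way to differentiation, had FPKM of 5.66, 5.87, 5.63 and 6.16 dorsally and 6.47, 5.86, 5.45 and 6.16 ventrally. All dorsal values lay within the wider ventral range. The fitted ventral minus dorsal difference of Gpr17 on the log2(FPKM + 1) scale was 0.03, with a 95% confidence interval of −0.13 to 0.19. Bcas1, a protein of newly formed and early myelinating oligodendrocytes (chr2:170346991-170427845, minus strand), had FPKM of 40.9, 52.3, 49.2 and 44.6 dorsally and 19.7, 24.8, 21.7 and 20.6 ventrally. Every dorsal value was well above every ventral one, and the mean was 2.15-fold higher dorsally (log2(V/D) −1.11, limma adjusted p 0.000408). Enpp6, a choline phosphodiesterase of newly formed oligodendrocytes, had FPKM of 2.77, 2.69, 3.05 and 3.76 dorsally and 1.36, 1.58, 1.54 and 2.27 ventrally. These values did not overlap, and the gene was D>V with a 1.81-fold ratio and a limma adjusted p of 0.0286, but it passed in only 1 of the 8 fits that left out 1 library, with adjusted p up to 0.0903 from limma. Tcf7l2, a Wnt effector that newly formed oligodendrocytes share with some neurons, ranged from 3.37 to 7.35 FPKM dorsally and from 4.32 to 7.60 ventrally. Itpr2, a calcium release channel of the endoplasmic reticulum, ranged from 4.75 to 5.19 dorsally and from 3.61 to 5.67 ventrally. Neither passed (adjusted p 0.628 and 0.734, limma).

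Set beside each other in the same library, the stages gave different ratios. Mbp was 42.6 to 57.9 times as abundant as Pdgfra in the dorsal libraries and 21.0 to 26.2 times in the ventral ones, on the FPKM scale. Bcas1 was 7.22 to 8.91 times as abundant as Gpr17 dorsally and 3.04 to 4.24 times ventrally. The ranges of the regions did not overlap for either ratio, which is given as a description since the genes were chosen with their values known.

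Genes of the myelin sheath were the group with the most D>V genes. Of its 14 genes, all tested, 13 were D>V and had no overlap between the regions, and all 13 passed in each of the 8 fits without 1 library. Of all genes tested, 2.15% were D>V and 6.17% had every dorsal library above every ventral one. The exception was Ninj2, an adhesion protein found after nerve injury, at 1.26 ± 0.389 FPKM dorsally and 0.847 ± 0.380 ventrally (SD, n = 4, limma adjusted p 0.464). The summed FPKM of the 14 genes was 763, 944, 1009 and 978 in the dorsal libraries and 420, 522, 541 and 536 in the ventral ones. The sum was 1.83-fold higher dorsally. The log2(V/D) of single genes ran from −1.24 to −0.57, with a median of −0.86.

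The structural proteins of compact myelin led in level. Mbp, myelin basic protein, which holds the inner membrane faces together (chr18:82475146-82585637, plus strand), had FPKM of 358, 448, 490 and 457 dorsally and 206, 240, 262 and 257 ventrally. It ranked at place 61 by mean level among all genes tested. Mobp, a basic protein that also lies in compact myelin (chr9:120149707-120181484), had 125, 168, 163 and 176 FPKM dorsally and 58.8, 86.3, 85.7 and 80.5 ventrally. The mean of Mbp was 1.82-fold and that of Mobp 2.03-fold higher dorsally, with limma adjusted p of 0.00254 and 0.00339. Mal, a small membrane protein that sorts lipids and proteins to myelin, had 64.2, 83.4, 84.6 and 89.4 FPKM dorsally and 32.1, 47.4, 48.5 and 47.7 ventrally. In all 3 genes dorsal library 1 was the lowest dorsal one and ventral library 1 the lowest ventral one. Even so, dorsal library 1 exceeded the highest ventral library. The number shared by these libraries is a place in the column order, and whether they came from the same mice is not known.

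Proteins of the myelin surface and of the cytoplasmic channels followed the same order. Mog, exposed on the outermost lamella, had FPKM of 16.9, 18.4, 23.9 and 21.9 dorsally and 8.21, 12.3, 12.01 and 12.4 ventrally. Mag, an adhesion molecule facing the axon, had 9.91, 12.03, 12.8 and 10.9 dorsally and 5.34, 5.15, 6.72 and 6.08 ventrally. Cnp, which keeps cytoplasmic channels through myelin open, had 41.6, 44.5, 55.9 and 52.5 dorsally and 25.3, 30.2, 32.0 and 30.3 ventrally. No region overlapped the other in these 3 genes. Cldn11, the claudin of the tight junctions between myelin wraps, had 23.5, 29.5, 27.2 and 24.3 FPKM dorsally and 12.1, 16.2, 12.7 and 16.8 ventrally. Its mean was 1.81-fold higher dorsally, close to the ratios of Mog (1.803) and Mbp.

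The largest ratio of the lineage genes tested belonged to Opalin, a sialylated membrane glycoprotein of oligodendrocytes, whose upstream sequence is shown above (gene at chr19:41061710-41077113, minus strand). It had FPKM of 5.48, 5.24, 6.56 and 5.57 dorsally and 2.21, 2.77, 2.52 and 2.16 ventrally, a mean 2.37-fold higher dorsally with a limma adjusted p of 0.000615. Tmem88b, a small membrane protein enriched in oligodendrocytes, had 17.7, 20.3, 21.5 and 22.7 dorsally and 8.59, 10.1, 9.91 and 10.1 ventrally, and was 2.13-fold higher dorsally (limma adjusted p 0.000408). The mean was at least 2-fold higher dorsally in 5 of the 26 D>V genes, namely these and Bcas1, Mobp and Aspa. Ermn, ermin, which binds the actin cytoskeleton, had FPKM of 19.5, 24.0, 25.5 and 28.0 dorsally and 8.79, 13.6, 13.4 and 13.5 ventrally. Evi2a, a transmembrane protein, had 11.4, 13.1, 14.5 and 12.3 dorsally and 6.43, 8.09, 6.84 and 7.77 ventrally. The dorsal means of Ermn and Evi2a were 1.97-fold and 1.76-fold the ventral ones.

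Tspan2 and Pllp had the smallest ratios of the 13. Tspan2, a tetraspanin of the myelin membrane, had FPKM of 62.1, 67.9, 73.4 and 67.8 dorsally and 39.9, 45.2, 41.4 and 45.9 ventrally, a 1.57-fold ratio. Pllp, plasmolipin, had 6.77, 7.96, 8.98 and 8.61 dorsally and 5.55, 4.398, 5.55 and 5.19 ventrally, a 1.56-fold ratio. Both passed, with limma adjusted p of 0.00139 and 0.0139.

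**Figure D2:**
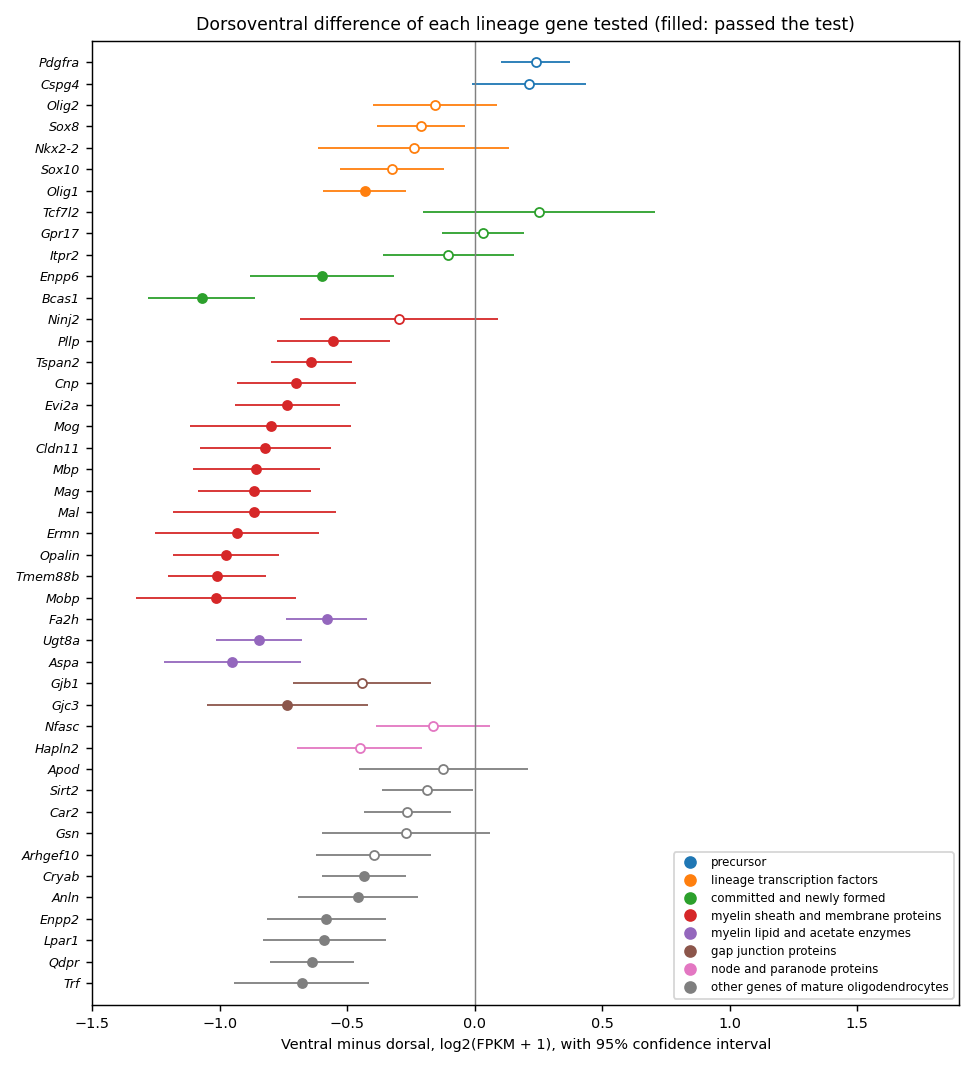
Fitted ventral minus dorsal difference on the log2(FPKM + 1) scale (x axis) for the 44 lineage genes tested (y axis), coloured by role, with 95% confidence intervals that are not adjusted for the number of genes. Filled points passed the test: 26 genes, all left of 0, while the precursor genes, Tcf7l2 and Gpr17 lie right of 0 and are open.

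Enzymes that make and feed myelin lipid had ratios like those of the sheath. Ugt8a, which makes galactosylceramide, a main lipid of myelin, had FPKM of 16.4, 16.3, 17.6 and 16.5 dorsally and 7.62, 9.56, 9.34 and 8.93 ventrally. Aspa, which frees acetate from N-acetylaspartate (chr11:73304992-73329596, minus strand), had 18.9, 19.7, 19.5 and 26.3 dorsally and 10.4, 8.47, 10.9 and 11.8 ventrally. Neither gene overlapped between the regions, and their means were 1.88-fold and 2.03-fold higher dorsally (limma adjusted p 0.00041 and 0.00234). Fa2h, which hydroxylates the fatty acids of those lipids, was 15.01 ± 1.12 FPKM dorsally and 9.69 ± 0.505 ventrally (SD, n = 4, limma adjusted p 0.00216). Gal3st1, which adds sulfate to galactosylceramide, had a mean under 1 FPKM and was not tested. Its values were 0.711 to 1.13 FPKM dorsally and 0.526 to 1.02 ventrally and overlapped.

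Both gap junction genes of oligodendrocytes had every ventral library below every dorsal one, and 1 of them passed. Of all genes tested, 6.17% had such values and 2.15% were D>V. Gjc3, a connexin of oligodendrocytes, had FPKM of 15.01, 22.0, 18.4 and 23.1 dorsally and 8.85, 12.1, 12.5 and 11.9 ventrally. It was D>V with a 1.73-fold ratio and a limma adjusted p of 0.0191, and passed in 5 of the 8 fits without 1 library. It did not pass without dorsal library 2 (0.0678), dorsal library 4 (0.0538) or ventral library 1 (0.0516), all adjusted p from limma. Gjb1, the connexin whose gene lies on the X chromosome, ranged from 1.51 to 1.97 FPKM dorsally and from 0.695 to 1.28 ventrally. Its values did not overlap, and it did not pass (log2(V/D) −0.76, limma adjusted p 0.0856).

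Proteins of the node of Ranvier and the paranode did not pass. Hapln2, a link protein that holds hyaluronan at nodes, ranged from 1.51 to 1.81 FPKM dorsally and from 0.707 to 1.17 ventrally, with no overlap and a limma adjusted p of 0.0531. Nfasc, neurofascin, which neurons also make, overlapped between the regions at 29.3 ± 2.43 and 26.2 ± 3.73 FPKM (SD, n = 4, adjusted p 0.491, limma). At an unadjusted p under 0.05, 1 of the 2 genes was lower ventrally and none higher.

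Of the other genes of mature oligodendrocytes, 6 of the 11 tested were D>V and none was V>D, the latter also at an unadjusted p under 0.05 in limma. Over all genes tested 2.15% were D>V and 1.45% V>D. Trf, transferrin, which carries the iron that oligodendrocytes need, had FPKM of 35.3, 46.5, 44.3 and 37.6 dorsally and 19.9, 26.3, 27.6 and 27.1 ventrally. Qdpr, which regenerates tetrahydrobiopterin, had 24.6, 29.6, 29.6 and 25.5 dorsally and 16.8, 17.3, 16.7 and 17.9 ventrally. The regions of both genes lay apart, with dorsal means 1.62-fold and 1.59-fold the ventral ones. An enzyme and a receptor of lysophosphatidic acid were D>V together. Enpp2, autotaxin, which makes that lipid, was 56.1 ± 6.32 FPKM dorsally and 37.1 ± 4.37 ventrally (limma adjusted p 0.0142). Lpar1, its receptor, was 14.1 ± 0.949 dorsally and 9.10 ± 1.58 ventrally (limma adjusted p 0.0155). Each of the pair passed in 7 of the 8 fits without 1 library, failing without dorsal library 2 (Enpp2, 0.0546) and ventral library 1 (Lpar1, 0.0519).

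Cryab, a small heat shock protein, and Anln, anillin, which organizes septin filaments in myelin, were also D>V. The mean of Cryab was 46.3 ± 3.79 FPKM dorsally and 34.0 ± 1.996 ventrally (SD, n = 4), and that of Anln 5.04 ± 0.624 and 3.40 ± 0.473. Anln passed in 2 of the 8 fits without 1 library, and neither gene passed when the libraries were rescaled to one total FPKM. The 5 that did not pass were Sirt2, a deacetylase (adjusted p 0.289), Arhgef10, a guanine nucleotide exchange factor (0.0653), Car2, carbonic anhydrase (0.0978), Apod, a lipid-binding lipocalin (0.760), and Gsn, the actin-severing protein gelsolin (0.420), all by limma. Arhgef10 and Car2 had every dorsal library above every ventral one, as did 6.17% of all genes tested, and the other 3 overlapped. Apod was the second most abundant gene of the lineage after Mbp, and its 101 to 154 FPKM dorsally covered most of the 96.7 to 145 FPKM found ventrally. Klk6, a serine protease of oligodendrocytes, had too few alignments by the authors' status and was not tested. Its FPKM was 0.297, 0.217, 0.991 and 0.215 dorsally and 0.0563, 0.0668, 0 and 0.0805 ventrally.

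**Figure D3:**
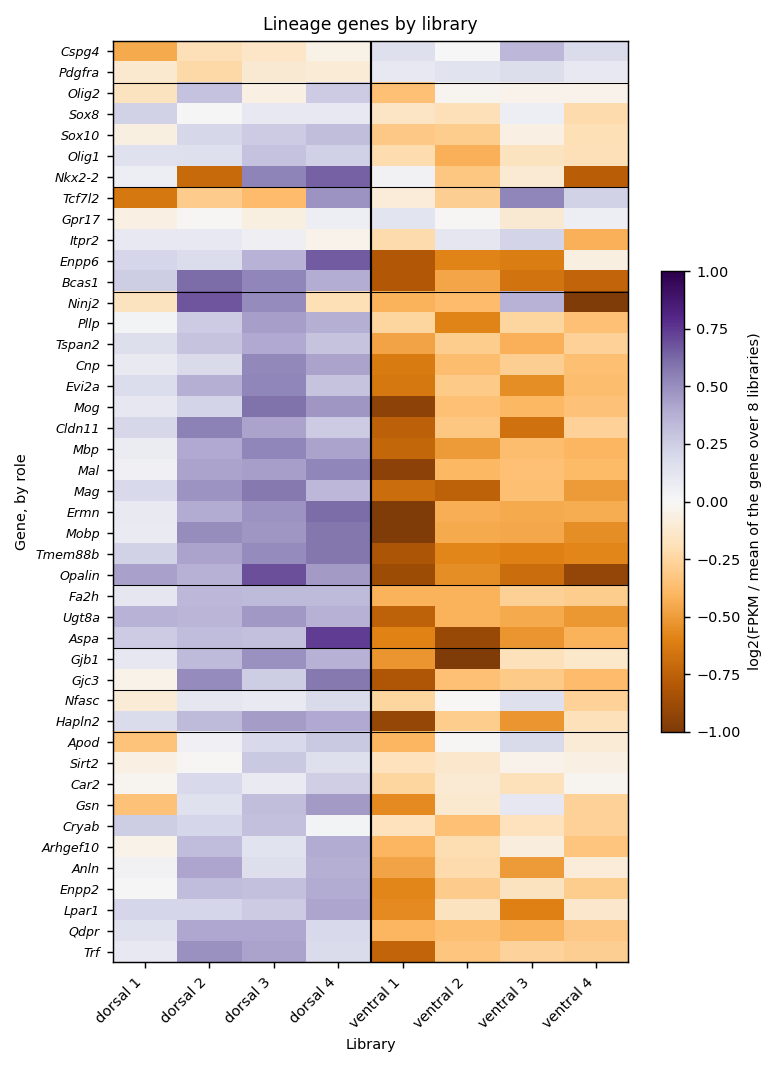
Level of each tested lineage gene (rows, by role) in each library (columns), as log2 of its FPKM over its own mean in the 8 libraries, with purple above and orange below that mean and colours capped at 1 in either direction. From Bcas1 down through the myelin genes the dorsal columns are mostly purple and the ventral columns mostly orange, while the 2 precursor genes at the top are the reverse.

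Libraries within a region also differed across the lineage. Dorsal library 1 was the lowest of its region for 12 of the 14 sheath genes, and ventral library 1 was the lowest of its region for 10. Over all genes tested these libraries were lowest for 24.5% and 23.5%. Of the 26 D>V genes 21 passed in each of the 8 fits without 1 library, and the 5 that did not were Enpp6, Gjc3, Enpp2, Anln and Lpar1. Leaving out 1 library gave 22 to 27 D>V lineage genes and no V>D one.

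Markers of other cell types differed by list in how many genes passed, where 3.6% of all genes tested did. Astrocyte markers (10 tested, summed FPKM 1064 to 1146 dorsally and 1020 to 1106 ventrally), microglial markers (10 tested, 124 to 134 and 131 to 145) and endothelial markers (8 tested, 33.5 to 38.5 and 25.4 to 31.8) held no D>V or V>D gene in limma. The endothelial sums did not overlap and were lower ventrally. Slc1a2, at 682 FPKM dorsally and 635 ventrally, made up most of the astrocyte sum. Aqp4, Gfap and Slc1a3 had every ventral library above every dorsal one, as did 4.95% of all genes tested. Slc1a2 and Slc4a4 had the reverse, as did 6.17%. At an unadjusted p under 0.05, 1 astrocyte marker was lower and 3 were higher ventrally, 2 microglial markers were higher, 2 endothelial markers were lower, and 4 neuronal markers were lower and 1 was higher, where 8.71% of all genes tested were lower and 7.31% higher. Of 6 mural cell markers tested, Vtn was V>D, and the summed level of that list overlapped at 51.7 to 68.7 FPKM dorsally and 52.6 to 65.6 ventrally. Of 10 neuronal markers 2 were D>V, Slc17a6, a glutamate transporter of synaptic vesicles (log2(V/D) −0.58), and Nefl, a neurofilament subunit of axons (−0.43), with summed FPKM of 4748 to 6017 dorsally and 4170 to 5179 ventrally. The part of these cells in the lineage values was not tested.

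Of the 6 markers of Schwann cells, which make the myelin of peripheral nerve, 2 were tested and neither passed, and 1 of them was lower ventrally at an unadjusted p under 0.05 in limma. Their summed FPKM was 3.68 to 4.86 dorsally and 2.24 to 5.14 ventrally. Markers of the choroid plexus, 2 of 7 tested, also held no gene that passed in limma, nor at an unadjusted p under 0.05, and summed to 5.24 to 6.39 FPKM dorsally and 4.605 to 7.33 ventrally. Of its defining markers Otx2 was listed at 0 in all libraries and Ttr reached at most 0.128 FPKM.

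A longer list of oligodendrocyte genes, also chosen with earlier results known, holds 48 genes outside the 46. Of these 42 were tested, 15 were D>V and none was V>D in limma, against 2.15% and 1.45% of all genes tested. At an unadjusted p under 0.05, 30 were lower and 2 were higher ventrally (71.4% and 4.76%, against 8.71% and 7.31% of all genes tested). Of the 42, 37 had a log2(V/D) below 0, and the median was −0.39. The largest ratios among the D>V genes were those of Prr5l, a binding partner of the mTOR kinase complex (log2(V/D) −1.03, limma adjusted p 0.0213), and Galnt6, a glycosyltransferase (−0.96, adjusted p 0.0405). These passed in 3 and 1 of the 8 fits without 1 library.

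**Figure D4:**
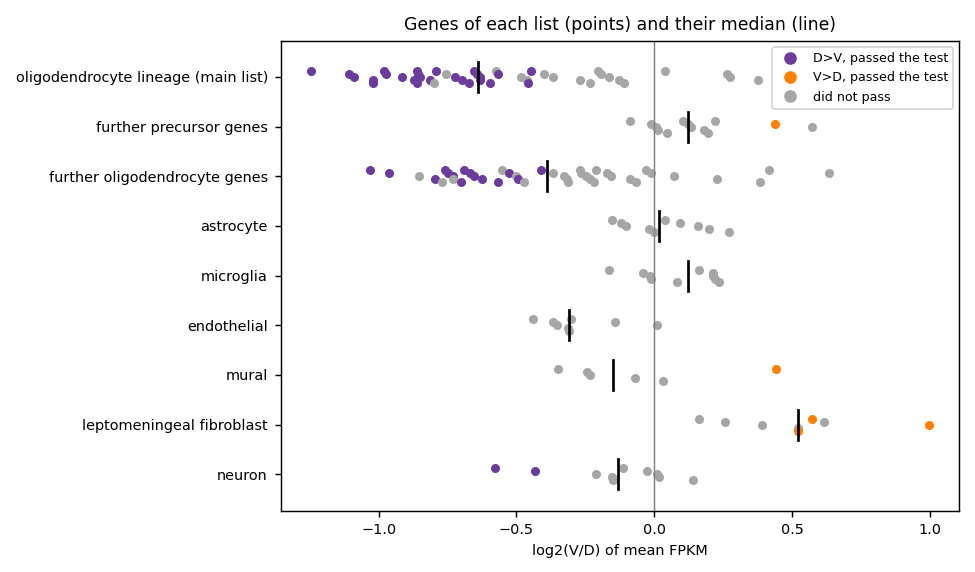
log2(V/D) of mean FPKM (x axis) for each tested gene of the lineage and of the further lists and cell type markers (y axis), with the median of each list as a black line. Purple points were D>V, orange points V>D and grey points did not pass; the lineage median is −0.64, and of the lists plotted the leptomeningeal one has all 8 of its tested genes above 0.

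**Figure D5:**
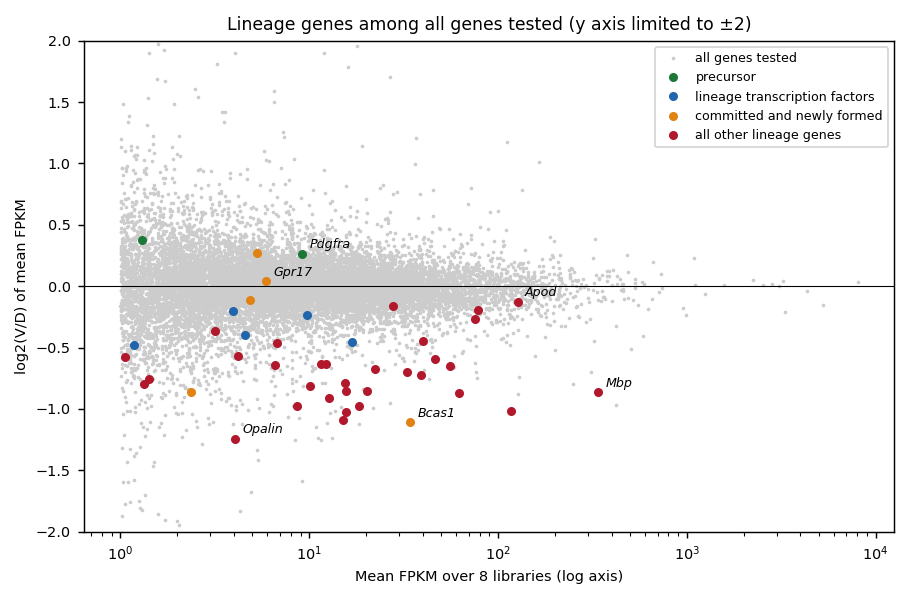
log2(V/D) of mean FPKM (y axis, limited to 2 in either direction) against mean FPKM over the 8 libraries (log x axis) for all genes tested (grey) and the lineage genes by stage (coloured). Myelin genes lie below 0 at all levels up to that of Mbp, and Pdgfra, Cspg4, Gpr17 and Tcf7l2 lie above 0.

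Outside the lists, the genes whose levels over the 8 libraries were most like the mean log2(FPKM + 1) of the sheath genes were Pvalb, Plekhh1, Map6d1, Syt2 and Rap1gds1. Their Pearson correlations were all 0.99, and after removal of each region's mean they were 0.87, 0.88, 0.93, 0.87 and 0.87. All points are the same 8 libraries and the regions differ in these genes, so the correlations are a description. Pvalb, parvalbumin, a calcium buffer of fast-spiking inhibitory neurons, was 15.7 ± 2.15 FPKM dorsally and 6.63 ± 0.961 ventrally (SD, n = 4). Syt2, a vesicle calcium sensor, was 7.60 ± 0.717 and 3.02 ± 0.407.

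Some readings share sequence with other genes. Exons of 18 of the 46 genes overlap an exon of another annotated gene, and whether fragments were counted by strand is not given in the sources used here. Of the 26 D>V genes 12 have such an overlap, for example Bcas1 with 2 antisense transcripts, Cnp with Dnajc7 and Olig1 with Gm15966, and their values are uncertain to that extent. The other 14, among them Mbp, Mog, Mag, Opalin, Tmem88b, Ugt8a and Aspa, have none.

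The direction of every result rests on which libraries are dorsal. The column headers of the FPKM table disagree with this for 4 of the 8 libraries, and the regions used here are those whose means equal the authors' regional means, within 0.1% for 14983 of 14989 genes dorsally and 14980 ventrally. The dorsal libraries here are headed D1, V1, D2 and V2, and the ventral ones D3, V3, D4 and V4. Columns of one number thus fall in one region. With the regions named in the headers no lineage gene passed in limma, and 1 gene was D>V and 0 were V>D over all genes.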

How the data were processed

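RNA from 4 dorsal and 4 ventral pools was reverse transcribed, the cDNA amplified and sequenced as paired ends. Per the labels the authors used CASAVA 1.8, TopHat2 2.0.8 and Cuffdiff. The deposited values are the FPKM that the authors obtained from Cuffdiff with the Ensembl release 73 annotation of GRCm38, 1 per gene and library. The authors' comparison table also holds fold changes, p-values and q-values, which were not used here, and its regional mean FPKM served only to assign libraries to regions. The column headers name another region for 4 libraries. The number of columns with values of single samples left unused was 4. A long table of fragments names libraries by condition and replicate number. These were not matched to single samples, and the table was left unused. No count test was run, and one by condition alone, without matching single samples, was not tried. Limma was used instead. The design named it as the substitute if no table gave fragments by region. Depth was not worked out from those fragments.

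Genes that the authors marked as having enough alignments and with a mean of at least 1 FPKM over the 8 libraries were compared between regions, 4 libraries each, with limma 3.58.1 under R 4.3.3. The fit was of log2(FPKM + 1) and let the prior variance follow the mean level. Differences on that scale understate the change of low genes. D>V and V>D needed an adjusted p (Benjamini-Hochberg, over all genes) under 0.05 and regional means whose log2 ratio exceeded 0.263 in size, that is 20%. On simulated data with 200 genes changed 2-fold in FPKM + 1 among 13543, the test recovered 179 (89.5%). This share gives no rate of false calls. Noise was drawn independently for each gene and library, so shifts of many genes together in 1 library were not simulated. Smaller changes were not simulated, and only 5 of the D>V lineage genes had a dorsal mean at least 2 times the ventral one. All 46 lineage genes were named, with values in every library for the 20 D>V genes of the largest ratio and for the leading genes of each stage. From the further lists at most the 5 largest called ratios were named. The genes, lists and tests were chosen with earlier results of these data known. Coordinates are from GENCODE M21 on GRCm38, and promoters from RefSeq. Other steps used Python 3.11.15, NumPy 2.4.6 and pandas 2.3.3. Alternatives were another pseudocount, other filters, no threshold on the ratio, rescaling, quantile normalization, sample weights, each library left out and the regions of the headers.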

Additional observations from a re-analysis of the deposited data

Results flagged for a closer look

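For each lineage gene the gap of the highest or lowest library to its nearest neighbour was set against the range of its region, and a share above Dixon's critical value at 95% marked a library that stood apart. This was so in 10 of 92 sets of 4 libraries, where chance gives about 1 in 20, or 4.6, for independent sets. The genes were read in the same 8 libraries, so the sets are not independent and the excess was not tested. Ventral library 1 was lowest and apart for 6 genes. Its FPKM was 3.08 for Olig2, where the other ventral libraries had 3.83 to 3.87, and 8.21 for Mog, against 12.01 to 12.4. It was 32.1 for Mal, against 47.4 to 48.5, and 8.79 for Ermn, against 13.4 to 13.6. It was 8.59 for Tmem88b, against 9.91 to 10.1, and 8.85 for Gjc3, against 11.9 to 12.5. Of the dorsal libraries, library 3 was highest for Ugt8a at 17.6 FPKM, against 16.3 to 16.5, and for Klk6 at 0.991 FPKM, against 0.215 to 0.297. Dorsal library 1 was lowest for Fa2h at 13.3 FPKM, against 15.5 to 15.6. Dorsal library 4 was highest for Aspa at 26.3 FPKM, against 18.9 to 19.7. Without ventral library 1, Mog, Mal, Ermn and Tmem88b still passed as D>V, Gjc3 did not, and 22 of the 26 lineage genes were D>V.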

How the results depend on the processing

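The 26 D>V lineage genes and 0 V>D ones became 26 and 0 with a pseudocount of 0.1, without the ratio threshold and with quantile normalization, 27 (with Hapln2) without the FPKM filter, 23 of 32 tested at a mean of at least 5 FPKM, and 24 (without Anln and Cryab) after rescaling to one total FPKM. With sample quality weights they were 28 (with Arhgef10 and Hapln2) and 1, Pdgfra. Rescaling of the fits, quantile normalization, weights and the headers' regions were chosen after seeing the data. Leaving out 1 library gave 22 to 27 and 0 to 0 lineage genes. Over all genes it gave 157 to 341 D>V genes, against 294, with 157 without dorsal library 2, 189 without dorsal library 4 and 163 without ventral library 1. It gave 91 to 191 V>D genes, against 198, with 91 without dorsal library 2 and also without ventral library 1, 123 without dorsal library 3 and 121 without ventral library 3. The cause was not tested, beyond there being fewer libraries. The fitted Gpr17 difference was −0.00140 to 0.0687 when a library was left out, below 0 without ventral library 1. The log2(V/D) of summed FPKM kept its sign in each group whenever a library was left out, within 0.25 to 0.30 for the precursor group, −0.95 to −0.79 for the sheath and −0.71 to −0.58 for all 46 genes. With the headers' regions 0 lineage genes passed, as did 1 D>V and 0 V>D genes in all. The log2 ratio of summed FPKM was then −0.0246 for the precursor group, −0.0380 for transcription factors, 0.10 for the committed stage, 0.12 for the sheath, 0.0694 for lipid enzymes, 0.31 for gap junctions, 0.0433 for nodes, 0.0823 for other genes and 0.10 for all 46. No paired analysis was run. The column headers carry numbers, but with the regions used here columns of one number, such as D1 and V1, fall in the same region. They therefore do not tie a dorsal to a ventral library of the same mice. The planned count tests, their size factors and the sums of fragments scaled to depth were not run. The long table's libraries were not matched to single samples, and its fragments were left unused. Depth was not worked out, so the precision of low genes such as Cspg4, Gjb1 and Hapln2 was judged only from the spread between libraries.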
